A study of Mus musculus with 37 samples.

Results

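Ly49C/I+ uNK cells, the uterine natural killer cells that carry the inhibitory receptors Ly49C or Ly49I, were compared between NKG2A KO and WT mice. Of the 37 bulk RNA-seq libraries of the study, 11 hold these cells, 5 from KO mice (numbered 4 to 8) and 6 from WT mice (numbered 1, 2, 4, 5, 7 and 8). They were chosen by genotype and sort gate alone, and are numbered as in the second line of the labels, from which some titles differ. Pregnant C57BL6 mice without treatment were killed at day 9.5 to 10.5 of gestation, and the labels describe the KO mice as NKG2A KO on the same background. The sources used here do not say how the NKG2A allele was made or how old the mothers were. Cells sorted as NK cells were live and single, carried CD45 and NKp46, and lacked CD3, CD4, CD8 and high CD11b. From these, cells with Ly49C or Ly49I on the surface and without NKG2A were taken, whereas cells with both kinds of receptor were not. A KO mouse has no NKG2A to exclude cells by, so its gate also takes in cells that would carry NKG2A together with Ly49C/I in a WT mouse. The genotype and this difference in the cells taken cannot be told apart here. Nothing in the labels says which libraries came from separate mice, so the p-values measure the spread between these libraries, which may be technical.

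NK cells use inhibitory receptors for MHC class I to spare healthy cells. Contact of these receptors with self MHC class I sets how strongly the cells later respond, a process called education. NKG2A pairs with CD94 and binds Qa-1, a non-classical MHC class I molecule that displays peptides cut from the leader sequences of other class I molecules, whereas Ly49C and Ly49I bind H-2K directly. Most of these lectin-like receptors are encoded side by side in the NK gene complex on chromosome 6. uNK cells make cytokines and growth factors that shape the vessels and tissue of the early placental bed.

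The 11 libraries held between 15672839 and 18607343 reads counted on genes, and KO libraries were slightly deeper on average than WT libraries (17921000 against 16578000 reads, two-sided exact permutation test, p = 0.0216). The first principal component set WT 5 apart and the second KO 5, with 29.2% and 17.1% of the variance. KO 4 had the highest level of many genes described below, so counts are also given without WT 5 and without KO 4. Levels are in CPM, read counts scaled to each library's size by the TMM method, and a difference is the log2 fold change of KO over WT, with its standard error (SE) or 95% interval. In bulk RNA, fewer cells of a type and less RNA per cell cannot be told apart.

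The genes of the sorted receptors were read first. Klrc1, which encodes NKG2A, lies at chr6:129666015-129678973 on the minus strand (GRCm38, as all gene positions here). It was between 1.27 and 7.90 CPM (median 1.89) in the WT libraries and at 3.51, 3.44, 3.80, 2.48 and 1.82 CPM in KO libraries 4 to 8. The ranges overlap, and both are far below the 493.9 to 760 CPM of the 9 WT libraries sorted for NKG2A. Because the WT gate excludes NKG2A+ cells, a low Klrc1 does not check the genotype labels of these libraries. Klra9, which encodes Ly49I, was between 464 and 731 CPM (median 677) in WT and at 966, 749, 949, 1136 and 1102 CPM in KO. In the uneducated libraries, which were sorted as lacking both receptors, it was between 50 and 123 CPM over both genotypes. Klra3, which encodes Ly49C, was between 25.3 and 81.9 CPM (median 58.3) in WT and at 80.4, 107.5, 103.4, 85.7 and 97.5 CPM in KO, lower than in the WT uneducated libraries (median 136 CPM). Between 21.5% and 40.3% of the 50-base stretches of Klrc1, Klra9 and Klra3 occur in transcripts of related genes, so their counts are uncertain. Ncr1, which encodes the sorted receptor NKp46, was between 649 and 1022 CPM in all 11 libraries. Of 9 genes that mark NK cells as such, 6 were higher and none lower in KO at an unadjusted p under 0.05 (median 0.26). Over all genes, 5.6% were higher and 5.12% lower.

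No gene passed the edgeR quasi-likelihood test at an adjusted p of 0.05 among 9344 genes tested (0% called, lowest adjusted p = 0.116). At an unadjusted p under 0.05, 523 genes (5.6%) were higher and 478 (5.12%) lower in KO cells. In 81 genes (0.867%) every KO library lay above every WT library, and in 66 (0.706%) every KO library lay below. Together these are 1.57% of the genes tested. Without WT 5 the numbers were 118 (1.26%) and 110 (1.18%), and without KO 4 they were 114 (1.22%) and 90 (0.963%). At an unadjusted p under 0.05, 4.93% of genes were higher and 4.99% lower without WT 1, 6.03% and 5.16% without WT 5, and 4.07% and 3.66% without KO 4. Other tests made calls on the same counts. The edgeR likelihood ratio test called 62 genes (0.664%), 48 of them higher (0.514%) and 14 lower (0.15%) in KO. DESeq2 called 84 (0.899%), 58 higher (0.621%) and 26 lower (0.278%). Both tests called 57 genes. A quasi-likelihood fit over all 37 libraries called 18 genes (0.193%), 14 higher (0.15%) and 4 lower (0.0428%), and 13 of the 18 were among those 57. A limma-voom fit with a weight for each library, added after the data were seen, called 15 (0.161%), 12 higher (0.128%) and 3 lower (0.0321%). Leaving out WT 1 gave 15 calls by the quasi-likelihood test (0.159%), all of them higher in KO, and leaving out KO 8 gave 2, whereas leaving out any other single library gave none.

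**Figure D1:**
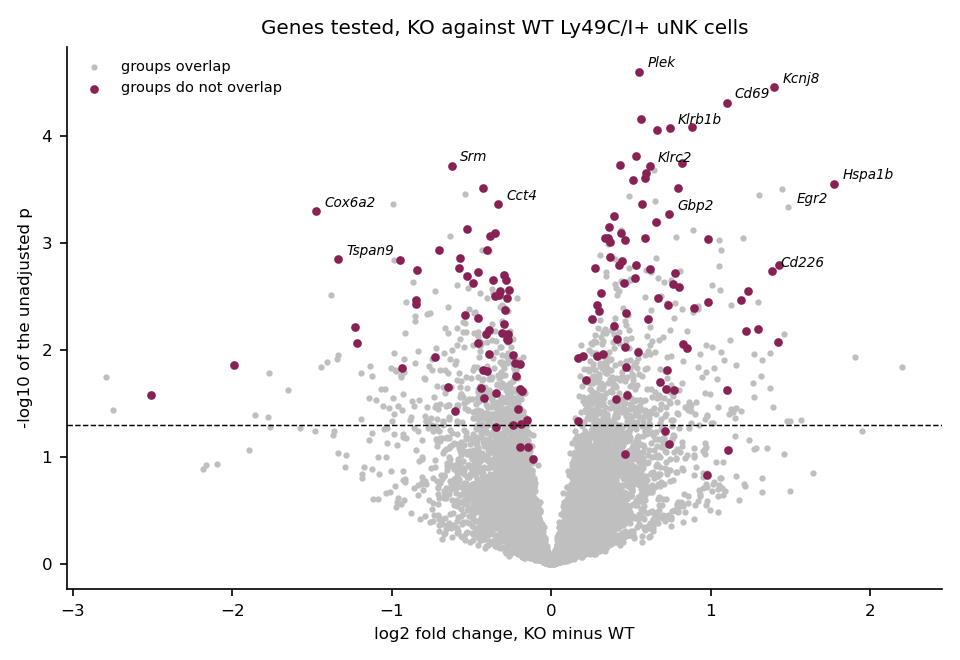
Each point is 1 of 9344 genes, with the log2 fold change of KO over WT Ly49C/I+ uNK cells on the horizontal axis and -log10 of the unadjusted quasi-likelihood p on the vertical axis, and the dashed line marks the unadjusted threshold of 0.05. Purple points are the 81 genes above and 66 genes below whose groups do not overlap, and none of the 9344 passed at an adjusted p of 0.05.

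Plek, which encodes pleckstrin, a substrate of protein kinase C, had the lowest p of all genes. It was between 370 and 522 CPM (median 452) in WT and at 693, 671, 616, 650 and 672 CPM in KO libraries 4 to 8, a difference of 0.55 (SE 0.0907, adjusted p = 0.116). The likelihood ratio test, DESeq2, the fit over all 37 libraries, limma-voom and the fit without WT 1 each called it higher in KO. Plek and the other genes of this paragraph were chosen after their values were seen. Cdc42ep3, an effector of the small GTPase CDC42, was between 34.5 and 61.5 CPM in WT and between 76.4 and 121 CPM in KO (0.88, SE 0.163). Txnip, an inhibitor of thioredoxin, was between 117 and 185 CPM in WT and between 217 and 274 CPM in KO (0.66, SE 0.124). Among genes lower in KO, Srm, which encodes spermidine synthase, was between 112 and 165 CPM in WT and between 77.8 and 102 CPM in KO (-0.62, SE 0.126). Mef2c, a transcription factor, was between 42.7 and 63.0 CPM in WT and between 18.0 and 45.1 CPM in KO (-0.99, SE 0.219), and its groups overlap only through KO 8 and WT 4. Cdc42ep3, Txnip, Srm and Mef2c were called by both the likelihood ratio test and DESeq2.

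Kcnj8, Cd69 and Klrb1b were each higher in every KO than in every WT library. Kcnj8 encodes Kir6.1, the pore of an ATP-sensitive potassium channel, and lies at chr6:142564837-142571614 on the minus strand. It was between 18.1 and 52.7 CPM (median 29.1) in WT and at 95.1, 91.9, 87.8, 71.8 and 63.7 CPM in KO libraries 4 to 8. The lowest KO library was KO 8 and the highest WT library was WT 1. KO libraries averaged 82.0 CPM with an SD of 13.6 (n = 5), and WT libraries 31.2 CPM with an SD of 12.3 (n = 6), a difference of 1.40 (95% interval 0.89 to 1.90, adjusted p = 0.116, quasi-likelihood test), with p = 0.00433 by the two-sided exact permutation test. The likelihood ratio test (adjusted p = 0.000161), DESeq2 (adjusted p = 4.5e-05), limma-voom (adjusted p = 0.0353) and the fit without WT 1 (adjusted p = 0.00625) called it. Over 23 alternatives the difference ranged from 1.27 to 1.6 and the adjusted p from 4.5e-05 to 0.789. The highest adjusted p came from a replicate block with offsets for GC content and length. The block kept only libraries whose number occurs in both groups (4, 5, 7 and 8), so WT 1, WT 2 and KO 6 were left out. None of the 50-base stretches of Kcnj8 occurs in another gene. A Kir6.1 channel needs a sulfonylurea receptor subunit. Abcc8, which encodes SUR1, had no read in any of the 11 libraries, and Abcc9, which encodes SUR2, had reads only in WT 5 (0.320 CPM). A count of 0 allows up to 3 reads, or 0.162 to 0.192 CPM depending on the library, for counting error alone, since the reads carry no molecular identifiers.

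The 250 bases before the RefSeq start of Kcnj8 are shown because it had the largest difference of those 3 genes. They lie at chr6:142571615-142571864 on the minus strand of GRCm38.p6 and are written 5′ to 3′.
Kcnj8: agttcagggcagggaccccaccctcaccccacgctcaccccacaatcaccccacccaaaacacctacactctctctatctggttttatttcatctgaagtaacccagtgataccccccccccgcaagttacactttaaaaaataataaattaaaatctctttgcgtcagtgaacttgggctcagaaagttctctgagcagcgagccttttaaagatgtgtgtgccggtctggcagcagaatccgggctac
Neither strand holds the letters of an interferon-stimulated response element (ISRE, searched as GAAA, any 2 bases, GAAA), a cyclic AMP response element (CRE, TGAC followed by GTCA), an AP-1 site (TGANTCA) or a T-box site (GGTGTGA). This says only that these letters are not in this window.

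Cd69 encodes an early activation antigen that keeps lymphocytes in tissue by holding back the receptor S1PR1, and lies at chr6:129267325-129275436 on the minus strand, in the NK gene complex. It was between 103.1 and 189 CPM (median 142) in WT and at 435, 243, 378, 292 and 195 CPM in KO libraries 4 to 8. KO 8 was close to the highest WT library, and KO 4 and KO 6 stood highest. The difference was 1.10 (95% interval 0.69 to 1.51, adjusted p = 0.116), with p = 0.00216 by the two-sided exact permutation test, the smallest that 5 against 6 libraries allow. Over 23 alternatives the difference ranged from 0.666, with a replicate block and offsets for GC content and length, to 1.22, without KO 8. Klrb1b encodes NKR-P1B, an inhibitory receptor for the lectin Clr-b, and lies at chr6:128813706-128826331 on the minus strand. It was between 116 and 187 CPM (median 175) in WT and at 366, 252, 239, 249.3 and 257 CPM in KO, a difference of 0.74 (95% interval 0.45 to 1.04, adjusted p = 0.116). KO 4 stood above the other 4 KO libraries, which were close together. Of the 50-base stretches of Klrb1b, 29.0% occur in Gm44511 or Klrb1c. Cd69 and Klrb1b were both called by the likelihood ratio test, DESeq2, limma-voom and the fit over all 37 libraries.

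**Figure D2:**
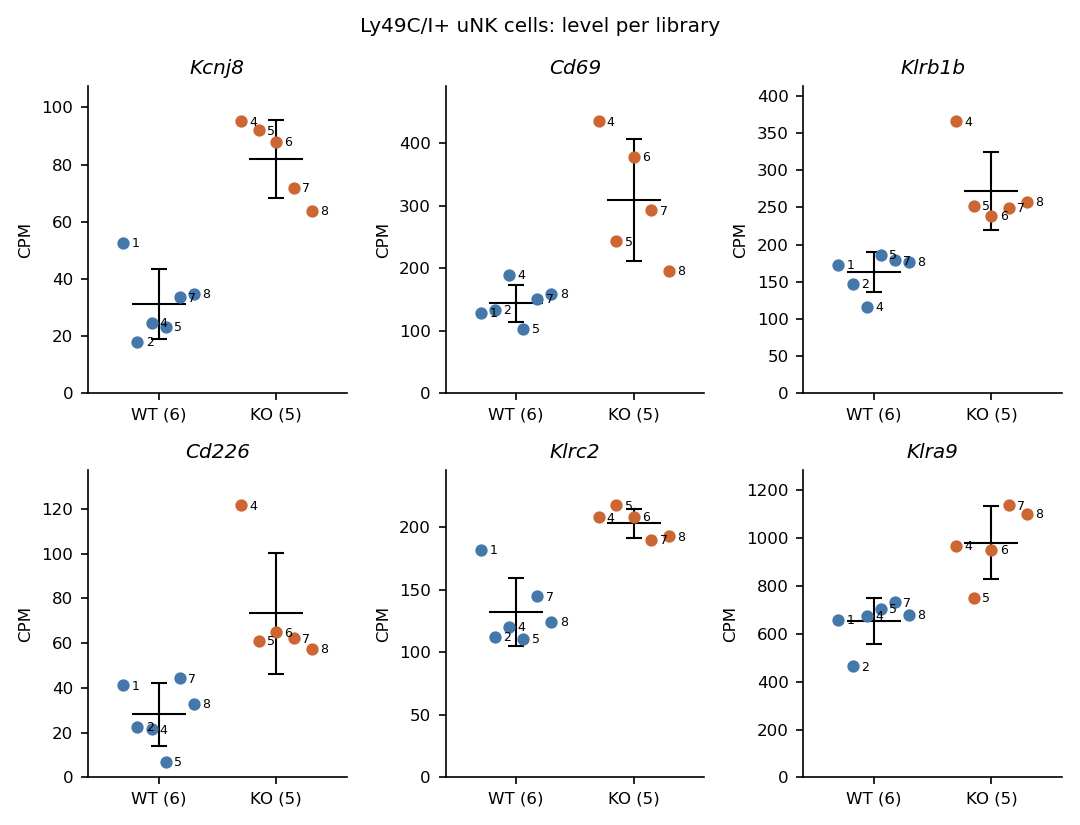
CPM of Kcnj8, Cd69, Klrb1b, Cd226, Klrc2 and Klra9 in each WT (blue, 6) and KO (orange, 5) Ly49C/I+ library, with the library number beside each point and lines for the mean and SD. In each panel all KO points lie above all WT points, and KO 4 is highest for Kcnj8, Cd69, Klrb1b and Cd226.

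Cd226 encodes DNAM-1, an activating receptor for CD155 and CD112, and lies at chr18:89176967-89272229 on the plus strand. It was between 6.85 and 44.2 CPM (median 27.7) in WT and at 122, 61.2, 64.8, 62.2 and 57.4 CPM in KO libraries 4 to 8. The groups did not overlap, and the difference was 1.38 (95% interval 0.61 to 2.16, adjusted p = 0.208). The likelihood ratio test (adjusted p = 0.0347) and DESeq2 (adjusted p = 0.0187) called it. Over 23 alternatives the difference ranged from 1.12 to 1.71 and the adjusted p from 0.0187 to 0.789. Cd226 belongs to a list of 12 other inhibitory and checkpoint receptors and their partners (median -0.09). Of these, 3 were higher and 1 lower at an unadjusted p under 0.05, against 5.6% and 5.12% of all genes. The other 3 were Cd160 (0.34), Pdcd1 (0.88) and Lair1, an inhibitory receptor for collagen (-0.48).

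Other receptor genes of the NK gene complex were higher in KO cells more often than lower. Klrc2 encodes NKG2C, which pairs with CD94 like NKG2A but activates the cell, and lies next to Klrc1 at chr6:129647496-129660689. It was between 111 and 181 CPM (median 122) in WT and at 208, 217, 208, 189 and 192 CPM in KO libraries 4 to 8. WT 1 was close to the KO libraries and the other WT libraries were well below. The difference was 0.62 (95% interval 0.35 to 0.88, adjusted p = 0.137). Of its 50-base stretches, 9.42% occur in Klrc1 or Klrc3. The antibody used to sort by NKG2A is listed in the study's methods as one against NKG2A, NKG2C and NKG2E. Klrd1, which encodes CD94, differed by 0.13 (95% interval -0.06 to 0.32), and its groups overlapped. Klrc3, which encodes NKG2E, was at most 19.1 CPM and differed by 0.44 (SE 0.33). Klrk1, which encodes the activating receptor NKG2D, was between 598 and 752 CPM in WT and between 766 and 955 CPM in KO (0.31, SE 0.0868), without overlap. Its difference was 0.045 with offsets for GC content and length, and -0.03 when a replicate block was added to them. Of the 6 CD94/NKG2 and NKG2D genes tested, Klrc2 and Klrk1 were higher at an unadjusted p under 0.05 (5.6% of all genes were). None was lower, and the median difference was 0.28.

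Klra9 was higher in KO by 0.59 (adjusted p = 0.139), without overlap of the groups. Klra3 was higher by 0.78 (SE 0.224, adjusted p = 0.25), and only WT 7 lay above any KO library. With Klra1, which encodes Ly49A (0.52), and Klra5, which encodes Ly49E (0.55), 4 of the 11 Ly49 genes tested were higher at an unadjusted p under 0.05 and none was lower (median 0.22). Klra7, which encodes Ly49G, differed by 0.05 (SE 0.0992), and Klra8, which encodes the activating receptor Ly49H, by 0.01 (SE 0.175). Klra4, which encodes the activating receptor Ly49D, was at 336 CPM in KO 4 and between 573 and 806 CPM in the other libraries (-0.19, SE 0.165). Among NKR-P1, Clec2 and related lectin genes, 6 of 11 were higher at an unadjusted p under 0.05, none lower, and the median was 0.29. Over all genes, 5.6% were higher and 5.12% lower, which applies to the Ly49 count too. The 6 higher lectin genes were Cd69, Klrb1b, Klri1, Klri2, Klrb1a and Klrb1c, the last of which encodes NK1.1 (499 to 725 CPM in WT, 607 to 816 CPM in KO, 0.32, SE 0.105). The summed level of this group was between 2535 and 3145 CPM in WT and between 3168 and 3621 CPM in KO (two-sided exact permutation test, p = 0.00433).

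Genes on either side of Klrc1 were counted together, whatever their function. Within 2 Mb of Klrc1, 38 of 169 genes were tested, and 14 were higher and 1 lower at an unadjusted p under 0.05 (39.5%, against 13.5% of the 468 genes tested on chromosome 6 and 10.7% of all genes). The median difference was 0.22 near Klrc1 and 0.01 over chromosome 6. Except for BC035044 (0.89) and 2310001H17Rik (0.59), the 14 higher genes are those counted in the receptor lists above. This count is thus not separate support for those lists, and the window was not counted without them. In 6 of the 38 genes every KO library lay above every WT library (0.867% of all genes, and 10 of the 468 on chromosome 6), and in 1, Tspan9, every KO library lay below (0.706% of all genes, and 5 on chromosome 6). Tspan9, which encodes a tetraspanin, was between 10.4 and 24.6 CPM in WT and between 3.78 and 9.49 CPM in KO (-1.34, SE 0.34). The part of DNA linked to the KO allele in these differences was not tested. Kcnj8 lies outside this window on the same chromosome.

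Chemokine and cytokine genes were among the larger differences. Ccl5, a chemokine for T cells and NK cells, was between 1011 and 2105 CPM (median 1440) in WT and at 2683, 2569, 2860, 2738 and 2015 CPM in KO libraries 4 to 8. KO 8 was below WT 1, and the other KO libraries were above all WT libraries. The difference was 0.81 (95% interval 0.46 to 1.17, adjusted p = 0.137), with p = 0.00649 by the two-sided exact permutation test. Ccl3, which encodes MIP-1α, was between 110 and 388 CPM (median 196) in WT and at 954, 527, 590, 480 and 284 CPM in KO (1.45, SE 0.308, adjusted p = 0.139). Ccl4, which encodes MIP-1β, was between 531 and 1305 CPM in WT and at 3013, 1699, 2149, 1725 and 1079 CPM in KO (1.05, SE 0.254). In both genes KO 4 stood highest and KO 8 lay within the WT range. Ifng encodes interferon-γ, through which NK cells open the decidual arteries of the mouse. It was between 40.9 and 109 CPM (median 74.9) in WT and at 312, 149, 178, 119 and 85.8 CPM in KO (1.20, 95% interval 0.58 to 1.82, adjusted p = 0.172). Again KO 4 stood highest and only KO 8 fell inside the WT range. Of the 50-base stretches of Ifng, 13.5% occur in the overlapping gene Gm49751.

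Of 19 cytokine, chemokine and death ligand genes tested, 5 were higher and 2 lower at an unadjusted p under 0.05, against 5.6% and 5.12% of all genes. The median of the list was 0.37, and the likelihood ratio test called Ccl5, Ccl3, Ccl4 and Ifng. The fifth higher gene was Fasl, which encodes the ligand of the death receptor FAS (306 to 439 CPM in WT, 445 to 512 CPM in KO, 0.37, SE 0.0925). The lower genes were Tgfb1 (-0.31) and Vegfa (-0.37), which encode TGF-β1 and the vessel growth factor VEGF-A. The summed level of the list was between 7191 and 8805 CPM in WT and between 8952 and 12170 CPM in KO (two-sided exact permutation test, p = 0.00216). Ccl5, Ccl3 and Ccl4 are part of this sum, so its p is not separate support for them. Xcl1, a chemokine for cross-presenting dendritic cells, was between 1104 and 1898 CPM in WT and at 2311, 1368, 1483, 1381 and 1258 CPM in KO, with a difference of 0.12 (95% interval -0.22 to 0.46). Only KO 4 lay outside the WT range. Il15, the survival cytokine of NK cells, was a low gene with a difference of 0.67 (95% interval -0.27 to 1.61).

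Granule genes went in both directions. Gzma was between 1320 and 3820 CPM (median 1903) in WT and at 3187, 3209, 3638, 3330 and 2662 CPM in KO (0.62, SE 0.205, adjusted p = 0.331). Only WT 1, the highest of all 11 libraries, overlapped the KO libraries, and without it the quasi-likelihood test called Gzma (adjusted p = 0.00625, range over 23 alternatives 0.00625 to 0.789). Srgn, which encodes serglycin, the proteoglycan that packs granule proteins, was between 950 and 1133 CPM in WT and between 1211 and 1662 CPM in KO (0.40, SE 0.0898). Nkg7 (0.26), Ctsc (0.27) and the granzyme inhibitor Serpinb6b (0.26) were also higher at an unadjusted p under 0.05. Gzmd was between 422 and 1428 CPM (median 645) in WT and at 89.1, 493.1, 443, 586 and 214 CPM in KO (-1.04, 95% interval -1.91 to -0.17). Gzme differed by -1.02 (SE 0.436) and Gzmf by -0.61 (95% interval -1.42 to 0.20). KO 4 and KO 8 were the lowest of the 11 libraries in Gzmd and Gzmf, and without WT 1 no granule gene was lower at an unadjusted p under 0.05. Gzmb (0.06, SE 0.104) and Prf1, which encodes perforin (0.08, SE 0.14), had intervals that included 0, and so did Klrg1, a receptor of mature NK cells (0.03, 95% interval -0.28 to 0.34). Over the 19 granule genes tested, 5 were higher and 2 lower (5.6% and 5.12% of all genes were), with a median of 0.06.

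**Figure D3:**
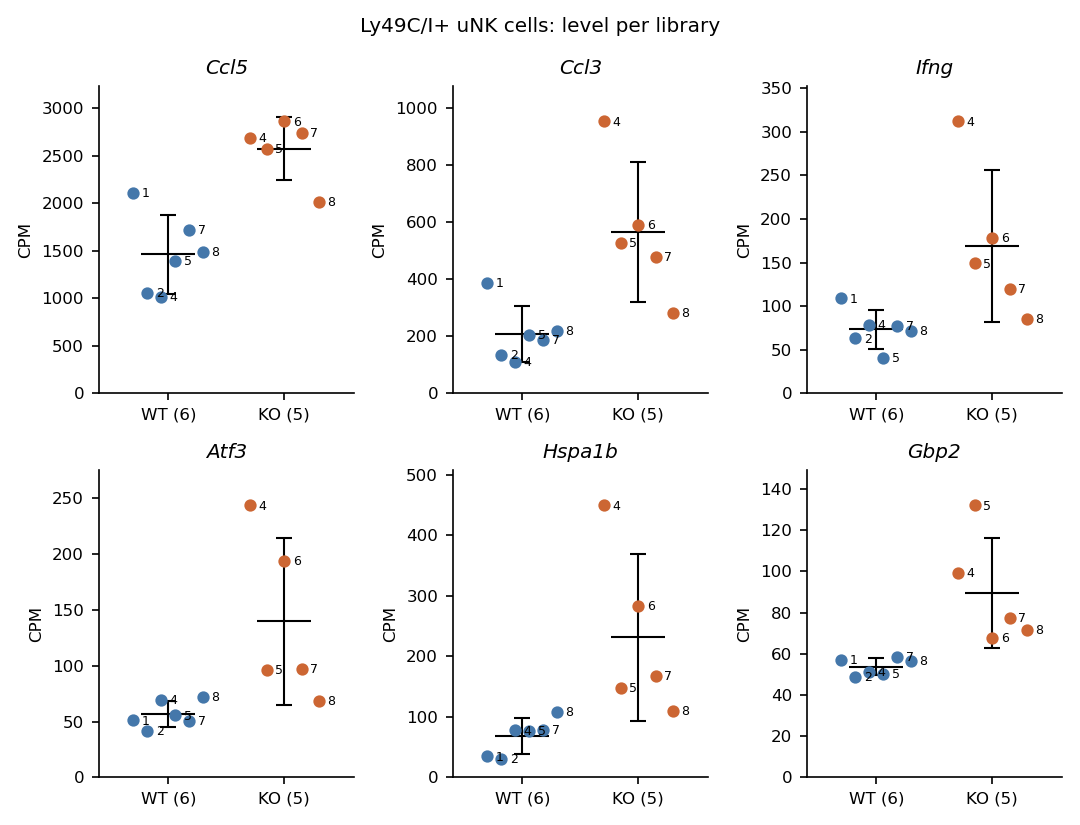
CPM of Ccl5, Ccl3, Ifng, Atf3, Hspa1b and Gbp2 in each WT (blue, 6) and KO (orange, 5) Ly49C/I+ library, with the library number beside each point and lines for the mean and SD. KO 4 is highest for Ccl3, Ifng, Atf3 and Hspa1b, KO 5 for Gbp2 and KO 6 for Ccl5, and KO 8 overlaps the WT libraries in Ccl5, Ccl3, Ifng and Atf3.

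Immediate early genes, which cells transcribe within minutes of receptor signalling or of handling, were mostly higher in KO cells. Of 28 tested, 14 were higher and none lower at an unadjusted p under 0.05 (5.6% and 5.12% of all genes were). A difference above 0 was found in 27 of them (median 0.28), against 50.6% of all genes. Without KO 4 the 14 became 5 (4.07% of all genes were higher), without WT 1 they became 8 (4.93%), and without WT 5 they became 12 (6.03%). Atf3, a stress-induced transcription factor, was between 41.6 and 71.8 CPM (median 53.2) in WT and at 243, 96.5, 194, 96.7 and 68.6 CPM in KO libraries 4 to 8 (1.30, 95% interval 0.70 to 1.91, adjusted p = 0.14, and 0.865 with a replicate block). KO 4 and KO 6 stood apart from the rest, and KO 8 lay within the WT range. The replicate block left out KO 6 together with WT 1 and WT 2, so its values rest on fewer libraries. Egr2, a factor induced by antigen receptor signalling, was between 4.76 and 11.0 CPM in WT and between 11.0 and 33.9 CPM in KO (1.49, SE 0.33). Klf6 (0.49, SE 0.105, and 0.32 with a replicate block), Fos (0.58, SE 0.166) and Dusp1, a phosphatase of MAP kinases (0.62, SE 0.165), were higher with overlap. The likelihood ratio test called Atf3, Egr2, Klf6 and Dusp1. Summed over the list, the level was between 18020 and 23630 CPM in WT and between 20560 and 29590 CPM in KO (two-sided exact permutation test, p = 0.0714).

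A list of 14 heat shock genes was added after the data were seen. Of these, 4 were higher and 1 lower at an unadjusted p under 0.05 (5.6% and 5.12% of all genes were), and the median difference was 0.06. Hspa1b, an inducible HSP70, was between 30.2 and 108 CPM (median 77.6) in WT and at 450, 147, 284, 168 and 110 CPM in KO libraries 4 to 8 (1.77, 95% interval 0.98 to 2.57, adjusted p = 0.139). Dnajb1, its co-chaperone, was between 151 and 193 CPM in WT and between 209 and 424 CPM in KO (0.79, SE 0.169). Hspa8, the HSP70 made at all times, differed by 0.00 (SE 0.1). In Hspa1b and Dnajb1, as in Atf3 and Fos, KO 4 and KO 6 were the highest libraries. The part of tissue processing in these genes was not tested.

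Interferon-stimulated genes were higher as a group. Of 37 tested, all 37 had a difference above 0 (median 0.36, against 50.6% of all genes above 0), and 16 were higher at an unadjusted p under 0.05 (5.6% of all genes were). Without WT 5 the 16 became 12 (6.03% of all genes were higher), without WT 1 they became 11 (4.93%), and without KO 4 they became 7 (4.07%). The summed level was between 3054 and 4108 CPM in WT and between 3852 and 5474 CPM in KO (two-sided exact permutation test, p = 0.0108). Gbp2, a guanylate-binding GTPase induced by interferon-γ, was between 48.8 and 58.5 CPM (median 53.8) in WT and at 99.3, 132, 67.5, 77.6 and 71.5 CPM in KO (0.74, 95% interval 0.38 to 1.09, adjusted p = 0.16). The WT libraries were close together and every KO library lay above them. Rtp4 (0.66, SE 0.152), Gbp7 (0.44, SE 0.113) and Rsad2, which encodes the antiviral enzyme viperin (0.73, SE 0.213), also had no overlap. Irgm1, an immunity-related GTPase, was between 47.4 and 74.0 CPM in WT and between 72.3 and 96.9 CPM in KO (0.53, SE 0.136). Ifit1 (0.85, SE 0.285) and Isg15 (0.47, SE 0.216) were higher with overlap.

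The promoters of 4 of these genes are shown with their ISRE letters in capitals, since the members were higher together. RefSeq promoters (GRCm38.p6) were found for 28 of the 37 genes, and 15 of those 28 (53.6%) held an ISRE on either strand in any of their promoters, against 3.46% of all 27025 genes with a promoter in the table (2.98% of its 32851 promoters, all of the same length). The list holds known interferon-stimulated genes, so its share of ISREs follows from its choice and does not bear on KO against WT. The median difference of the 15 was 0.44, and members without an ISRE were not compared with them. Dusp1 is shown with its CRE in capitals. A CRE was found in 4 of 23 immediate early genes with a promoter (17.4%, Btg2, Dusp1, Nfkbid and Ppp1r15a), against 1.77% of all genes (1.55% of promoters). A match is a description of letters, not a bound site. The windows are chr3:142620413-142620662 (plus strand) for Gbp2, chr3:142530086-142530335 (plus) for Gbp7, chr11:48871421-48871670 (minus) for Irgm1, chr12:26456453-26456702 (minus) for Rsad2 and chr17:26508473-26508722 (minus) for Dusp1, each 250 bases before the start. In Irgm1, a pair of overlapping ISREs gives 1 run of capitals.
Gbp2: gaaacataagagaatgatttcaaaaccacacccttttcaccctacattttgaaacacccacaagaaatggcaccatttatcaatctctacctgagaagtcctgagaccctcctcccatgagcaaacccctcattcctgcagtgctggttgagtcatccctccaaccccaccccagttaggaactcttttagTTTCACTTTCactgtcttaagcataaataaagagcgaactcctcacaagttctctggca
Gbp7: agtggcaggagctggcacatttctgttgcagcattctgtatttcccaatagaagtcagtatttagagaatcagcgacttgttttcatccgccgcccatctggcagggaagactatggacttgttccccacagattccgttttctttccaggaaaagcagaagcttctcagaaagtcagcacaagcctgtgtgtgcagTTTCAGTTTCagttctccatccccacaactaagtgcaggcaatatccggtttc
Irgm1: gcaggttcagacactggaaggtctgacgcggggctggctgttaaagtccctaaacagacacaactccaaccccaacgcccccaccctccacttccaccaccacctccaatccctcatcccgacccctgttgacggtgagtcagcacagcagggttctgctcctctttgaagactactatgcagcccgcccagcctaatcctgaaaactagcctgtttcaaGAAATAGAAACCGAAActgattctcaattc
Rsad2: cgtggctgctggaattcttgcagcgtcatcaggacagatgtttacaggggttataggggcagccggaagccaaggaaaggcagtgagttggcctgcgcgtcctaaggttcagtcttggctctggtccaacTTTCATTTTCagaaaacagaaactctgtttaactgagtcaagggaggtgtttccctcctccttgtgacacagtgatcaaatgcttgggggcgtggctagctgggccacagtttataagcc
Dusp1: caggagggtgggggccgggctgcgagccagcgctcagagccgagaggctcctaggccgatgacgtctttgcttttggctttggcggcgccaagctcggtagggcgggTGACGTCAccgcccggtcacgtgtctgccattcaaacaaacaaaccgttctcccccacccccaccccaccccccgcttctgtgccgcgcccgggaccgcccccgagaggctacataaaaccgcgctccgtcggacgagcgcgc

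MHC class I genes, the ligands of the receptors compared here, were slightly higher. H2-T23, which encodes Qa-1, the ligand of NKG2A, was between 534 and 695 CPM (median 572) in WT and at 785, 739, 705, 744 and 666 CPM in KO libraries 4 to 8 (0.31, 95% interval 0.14 to 0.47, adjusted p = 0.204). WT 7 was above KO 8, and the groups were otherwise apart. H2-D1 (0.19, SE 0.0614) and B2m, which encodes the light chain of MHC class I (0.18, SE 0.0674), were higher at an unadjusted p under 0.05. H2-K1, the ligand of Ly49C and Ly49I, differed by 0.15 (95% interval -0.00 to 0.31). Of 20 genes of MHC class I and its assembly, 5 were higher (5.6% of all genes were), none was lower, and the median was 0.17. Of the 50-base stretches of H2-T23 and H2-D1, 15.0% and 14.3% occur in other genes.

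Of 28 maturation surface markers, integrins and trafficking receptors, 9 were higher and 2 lower at an unadjusted p under 0.05, against 5.6% and 5.12% of all genes. A difference below 0 was found in 8 of the 28 (median 0.22). S1pr5, a receptor that lets mature NK cells leave tissue, was between 18.6 and 133 CPM (median 47.3) in WT and at 155, 134, 159, 143 and 101 CPM in KO libraries 4 to 8 (1.30, SE 0.373). Ly6c2, a marker of mature NK cells, was between 82.2 and 266 CPM (median 135) in WT and at 284, 405, 309, 331 and 167 CPM in KO (1.05, SE 0.272). In both genes WT 1 stood highest of its group, and KO 8 alone was below it. The β2 integrin gene Itgb2 (0.39, SE 0.0893) and its partners Itgal (0.31) and Itgam, which encodes CD11b (0.72, SE 0.271), were also higher. The lower genes were Itgav (-0.49) and Thy1 (-0.33). The summed level of the list was between 7726 and 9002 CPM in WT and between 8933 and 10020 CPM in KO (two-sided exact permutation test, p = 0.0108).

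Among 28 NK lineage and maturation factors (median 0.09), 6 were higher and 1 lower at an unadjusted p under 0.05, against 5.6% and 5.12% of all genes. Without KO 4 there were 4 higher and 3 lower, without WT 1 there were 6 and 3, and without WT 5 there were 4 and 1. The shares over all genes were 4.07% and 3.66% without KO 4, 4.93% and 4.99% without WT 1, and 6.03% and 5.16% without WT 5. Id2, which all innate lymphocytes need, was between 731 and 995 CPM (median 883) in WT and at 1264, 1237, 1309, 1256 and 909 CPM in KO (0.44, SE 0.103, adjusted p = 0.172). The first 4 KO libraries were close together and above all WT libraries, and KO 8 was within the WT range. Klf2, a factor that drives S1P receptor genes, was between 95.6 and 322 CPM in WT and at 395, 287, 407, 389 and 184 CPM in KO (0.92, SE 0.269). Ets1 was higher without overlap (0.20, SE 0.0677), and Foxo1, which restrains NK maturation, was lower without overlap (94.5 to 118 CPM in WT, 77.0 to 89.0 CPM in KO, -0.31, SE 0.099). Tbx21, which encodes T-bet, differed by 0.22 (SE 0.0945) and Eomes by 0.08 (SE 0.0969).

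Among cytokine receptors, SOCS and STAT genes, 6 of 30 were higher and 2 lower at an unadjusted p under 0.05 (median 0.11). Over all genes, 5.6% were higher and 5.12% lower, which applies to each list of this paragraph. Il18rap, a subunit of the interleukin-18 receptor, was between 60.7 and 157 CPM in WT and at 201, 172, 149, 152 and 97.3 CPM in KO (0.82, SE 0.24). Socs2, a feedback inhibitor of cytokine signalling, was between 7.46 and 19.7 CPM in WT and between 16.8 and 28.9 CPM in KO (1.06, SE 0.293), whereas Socs3 was lower (-0.44, SE 0.148). Il2rb, the shared receptor subunit of interleukins 2 and 15, differed by -0.07 (95% interval -0.20 to 0.06). Of 23 ion channel genes, 4 were higher and 1 lower (median 0.13), and without WT 5 there were 6 higher and 1 lower. Beside Kcnj8 these were Orai2, a store-operated calcium channel (26.0 to 33.1 CPM in WT, 33.3 to 56.6 CPM in KO, 0.47, SE 0.169), the potassium channel Kcnk5 (0.71), the calcium pump Atp2a3 (0.24) and, lower, the calcium-activated potassium channel Kcnn4 (-0.77). Orai1 differed by 0.02 (SE 0.157). Of 30 genes of receptor-proximal signalling, 3 were higher, Pik3cd (0.26), Pik3r1 (0.27) and Pag1 (0.75), and 1 was lower, Sh2d2a (-0.23), with a median of 0.11. This is near the 10.7% of all genes that differed in either direction, and is not read as a result about the family. Without WT 5 there were 5 higher and 1 lower signalling genes. Of 15 survival genes, Mcl1, which NK cells need to live (0.28, SE 0.0922), Bcl2a1b (0.65, with 79.2% of its sequence shared with other genes) and Bbc3 (0.52) were higher and none was lower. Without KO 4, 1 survival gene was higher, and without WT 5, 2 were higher and 1 lower. The shares over all genes were 4.07% higher and 3.66% lower without KO 4, and 6.03% and 5.16% without WT 5.

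Of 32 genes of oxidative phosphorylation, 10 were lower and none higher at an unadjusted p under 0.05, and 27 had a difference below 0 (median -0.11). Over all genes, 5.12% were lower and 5.6% higher, which applies to each list of this paragraph. Without KO 4 the 10 became 3 (3.66% of all genes were lower), without WT 5 they became 7 (5.16%), and without WT 1 they became 8 (4.99%). Uqcrq, a subunit of complex III, was between 198 and 274 CPM (median 231) in WT and at 164, 170, 184, 190 and 193 CPM in KO libraries 4 to 8 (-0.35, 95% interval -0.56 to -0.14, adjusted p = 0.238). The groups did not overlap. Summed over the list, the level was between 9970 and 11130 CPM in WT and between 8636 and 10330 CPM in KO (two-sided exact permutation test, p = 0.00866). Of 19 glycolysis genes, 4 were lower (Gpi1, Ldha, Gapdh and Tpi1, from -0.27 to -0.20) and 2 higher, the glucose transporter Slc2a3 (0.57) and the regulator Pfkfb3 (0.76), with a median of -0.16. Summed glycolysis genes gave p = 0.0866 by the two-sided exact permutation test. Without KO 4, 1 glycolysis gene was lower and none higher, without WT 1 there were 2 lower and 1 higher, and without WT 5 there were 5 lower and none higher. The shares of all genes lower are given above, and those higher were 4.07%, 4.93% and 6.03% in the same order. All 8 subunits of the CCT chaperonin, which folds actin and tubulin, had a difference below 0, and 4 were lower at an unadjusted p under 0.05 (a list added after the data were seen). Cct4 was between 344 and 429 CPM in WT and between 299 and 316 CPM in KO (-0.33, SE 0.0732), and Cct6a between 387 and 467 CPM in WT and between 273 and 363 CPM in KO (-0.38, SE 0.0916).

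Cell cycle genes had a median of -0.20 over 35 genes, 29 of them below 0, with 2 higher and 4 lower at an unadjusted p under 0.05. Over all genes, 5.6% were higher and 5.12% lower, so the 2 higher genes are near that share. Without WT 5 there were 10 lower (5.16% of all genes were) and without KO 4 there was 1 (3.66%). Ccnd2, which encodes cyclin D2, was between 255 and 423 CPM (median 341) in WT and at 570, 597, 493.3, 520 and 403 CPM in KO (0.64, SE 0.131, adjusted p = 0.137), and Ccnd3 was higher by 0.47. Cdk1 was between 80.3 and 128 CPM in WT and at 63.5, 78.9, 64.0, 40.3 and 87.6 CPM in KO (-0.57, SE 0.186). KO 8 alone was within the WT range of Cdk1. Birc5, Aurkb and Tyms were the other lower genes, from -0.45 to -0.40. The summed level of the list did not separate the groups (two-sided exact permutation test, p = 0.732).

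**Figure D4:**
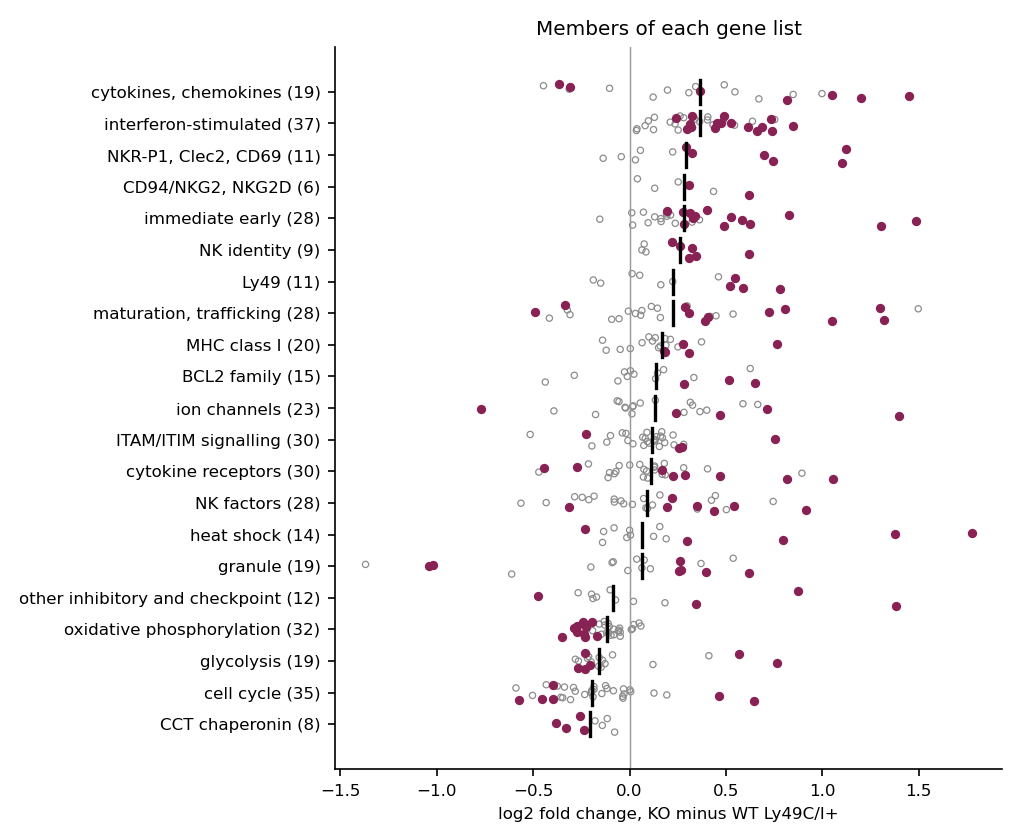
Each point is a tested gene of the list named at the left, with its number of tested genes in brackets, and the horizontal axis gives the log2 fold change of KO over WT Ly49C/I+ uNK cells. Filled points have an unadjusted p under 0.05 and black bars mark the list's median, which is highest for cytokines (0.37) and interferon-stimulated genes (0.36) and lowest, of the lists drawn, for the CCT chaperonin (-0.21).

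Markers of other cells that a sort can carry over were read for the same libraries. The summed level of 18 macrophage and dendritic cell genes was between 53.9 and 836 CPM in WT, highest in WT 1, and between 60.3 and 433 CPM in KO (two-sided exact permutation test, p = 0.251). All 8 tested genes of this list had a difference below 0 (median -0.76), none at an unadjusted p under 0.05, and Csf1r, a defining marker, was at most 16.7 CPM. Summed T cell genes were between 853 and 1076 CPM in WT and between 908 and 985 CPM in KO (two-sided exact permutation test, p = 1). Of these, Cd3g was between 68.9 and 173 CPM and Cd3e at most 13.7 CPM over all 11 libraries. Tcrg-C4 (58.3 CPM), and among genes associated with type 1 innate lymphoid cells Tmem176b (82.4 CPM) and Cxcr6 (130.9 CPM), were highest in KO 4, and the next highest KO library had 14.9, 18.7 and 46.5 CPM. The differences of these genes were 2.20 (SE 0.79), 1.91 (SE 0.66) and 1.32 (SE 0.491), and without KO 4 they were 1.31, 0.70 and 0.603. The same 3 genes were also higher in NKG2A+ than in uneducated uNK cells of WT mice (3.65, 2.33 and 2.86). In KO over WT uneducated cells they differed by 1.98, 0.96 and 1.16. They are thus not markers of cells other than uNK cells alone, and the part of NKG2A+ cells was not tested. Without KO 4, none of the 8 tested genes of either list was higher at an unadjusted p under 0.05, and 2 innate lymphoid genes were lower. Over all genes, 4.07% were higher and 3.66% lower without KO 4. With all libraries, 6 of the 8 T cell genes and 3 of the 8 innate lymphoid genes were below 0. At an unadjusted p under 0.05, 1 T cell gene was higher and none lower, and 2 innate lymphoid genes were higher and 1 lower. Over all genes, 5.6% were higher and 5.12% lower. Summed innate lymphoid genes were between 449 and 736 CPM in WT and between 538 and 823 CPM in KO (two-sided exact permutation test, p = 0.623). Red cell genes were between 801 and 2567 CPM in WT and between 411 and 1587 CPM in KO (two-sided exact permutation test, p = 0.0952), and the embryonic globin Hbb-y was lower in KO (4.01 to 52.9 CPM against 0 to 8.69 CPM). Summed B cell genes were between 434 and 655 CPM in WT and between 428 and 615 CPM in KO, nearly all from Ighm, and Cd79a was at most 0.948 CPM. Sums of decidual (365 to 600 CPM), endothelial (130 to 218 CPM) and trophoblast genes (102 to 276 CPM) overlapped between the groups, and neutrophil and platelet genes were at most 59.5 and 3.36 CPM. The part of these cells in the differences above was not tested.

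The same genotypes were also compared in uneducated uNK cells, with 8 KO and 9 WT libraries that are not among the 11. The KO gate of these cells also takes in cells that would carry NKG2A in a WT mouse, where the gate left them out. Genotype and this difference in the cells taken cannot be told apart in this comparison either. No gene passed the quasi-likelihood test there either (0% of 9288), and 354 (3.81%) were higher and 265 (2.85%) lower at an unadjusted p under 0.05. The likelihood ratio test and DESeq2 each called 1 gene. Kcnj8 was between 0.0672 and 18.0 CPM (median 4.58) in WT and between 8.80 and 30.5 CPM (median 18.4) in KO uneducated cells, a difference of 1.79 (SE 0.504). In order of its median, Kcnj8 thus stood lowest in WT uneducated cells, then in KO uneducated (18.4 CPM), WT NKG2A+ (27.2 CPM), WT Ly49C/I+ (29.1 CPM) and KO Ly49C/I+ cells (87.8 CPM). The ranges of WT NKG2A+ (18.1 to 47.5 CPM) and WT Ly49C/I+ libraries overlap almost fully. Klrb1b (0.45), Klrc2 (0.58), Cd226 (0.95), Ccl3 (0.93) and Ifng (0.71) were also higher in KO uneducated cells, and Cd69 differed by 0.39 (SE 0.145) there against 1.10 here. Among 513 genes higher in KO Ly49C/I+ cells at an unadjusted p under 0.05 and tested in both, 77.2% were above 0 in the uneducated comparison, and of 474 lower genes 74.3% were below 0, against 59.7% with the same sign over all 9078 genes. These shares are descriptions over genes, which are not independent replicates. Same-number libraries of uneducated and Ly49C/I+ cells had deviations that correlated at 0.024 to 0.255 in KO and 0.075 to 0.18 in WT. Both populations may thus come from the same mice, and the uneducated comparison is not taken as an independent repeat.

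Whether the genotype difference itself was unlike in Ly49C/I+ and uneducated cells was tested as an interaction over the 28 libraries. Both KO gates take in cells that would carry NKG2A in WT mice, so the test does not separate the genotype from the cells taken. No gene passed among 9322 (0% called), 193 (2.07%) had a larger and 221 (2.37%) a smaller difference at an unadjusted p under 0.05, and DESeq2 called 1. Elmod2, which encodes a GTPase-activating protein of the ARL family, had the lowest p. It was between 3.58 and 11.9 CPM in WT and at 15.2, 22.0, 12.5, 26.1 and 14.7 CPM in KO Ly49C/I+ cells (1.43, SE 0.368), whereas the difference was -0.83 in uneducated cells, so that the interaction was 2.25 (SE 0.495, adjusted p = 0.705). Zfr, an RNA-binding zinc finger protein, differed by 0.35 here and by -0.31 in uneducated cells (interaction 0.65, SE 0.149, adjusted p = 0.705). The 4 genes of lowest p with a negative interaction were Wdr55 (-0.83, SE 0.209), Ilf2 (-0.56, SE 0.143), Akr1b3 (-0.43) and Hgh1 (-0.94), and with a positive one, after Elmod2 and Zfr, Srgn (0.41, SE 0.108) and Dubr (1.14), each of the 6 with an adjusted p of 0.998. For Kcnj8 the interaction was -0.40 (SE 0.636), for Cd69 0.70 (SE 0.249) and for Klrb1b 0.27 (SE 0.16), each with an adjusted p of 0.998.

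Because the KO gate takes in cells that would carry NKG2A in WT mice, the differences were set beside those between NKG2A+ and uneducated cells of WT mice, 9 libraries of each and none among the 11. The WT uneducated libraries are the same as in the previous comparisons. There 698 of 9339 genes rose (7.47%) and 706 fell (7.56%) in the quasi-likelihood test. Of the 690 that rose there and were tested here, 559 (81.0%) were also above 0 in KO over WT Ly49C/I+ cells, 185 of them at an unadjusted p under 0.05, and of the 672 that fell there 542 (80.7%) were below 0 here, 141 of them at an unadjusted p under 0.05. Over all 9132 genes tested in both, 61.8% had the same sign. Same-number libraries of WT uneducated and WT Ly49C/I+ cells had deviations that correlated at 0.075 to 0.18 (6 pairs), so the comparisons may not be independent. Both subtract WT cells, so deviations shared by these libraries would raise the shares of equal sign. Their part was not tested. Kcnj8 (2.45, adjusted p = 0.00138), Klrb1b (1.33, adjusted p = 7.2e-09), Cd226 (2.39, adjusted p = 2.77e-06) and Ccl5 (1.15, adjusted p = 3.57e-05) rose in NKG2A+ cells and were higher in KO Ly49C/I+ cells. Gzmd (-2.28, adjusted p = 1.46e-05) and Cox6a2, a subunit of respiratory complex IV (-2.02, adjusted p = 0.00675), fell in NKG2A+ cells and were lower here (Cox6a2 by -1.47, from 14.6 to 37.0 CPM in WT to 4.22 to 12.4 CPM in KO, without overlap). Other genes did not follow. Cd69 (0.09, SE 0.107), Klrc2 (-0.12, adjusted p = 0.666) and Srgn (0.06, SE 0.0602) did not pass in NKG2A+ cells, although all 3 were higher in every KO library here. The part of NKG2A+ cells in the KO gate was not tested.

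**Figure D5:**
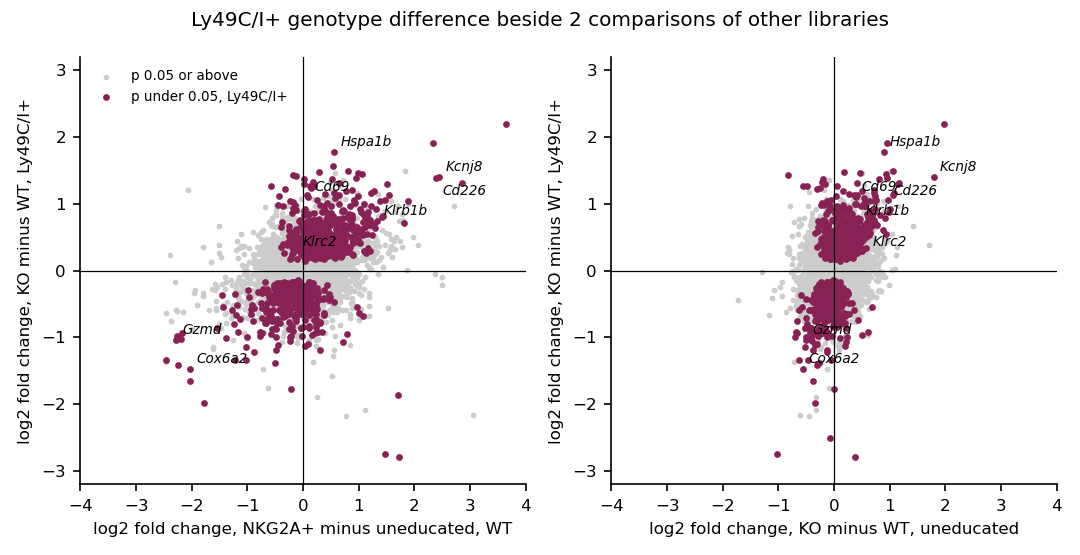
Each point is a gene, with the log2 fold change of KO over WT Ly49C/I+ uNK cells on the vertical axes and that of NKG2A+ over uneducated WT cells (left) or KO over WT uneducated cells (right) on the horizontal axes; purple points have an unadjusted p under 0.05 in Ly49C/I+ cells. The same sign was shared by 61.8% of all genes on the left and 59.7% on the right, and Kcnj8 and Cd226 lie far from 0 in all 3 comparisons, whereas Cd69 lies near 0 on the left axis.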

How the data were processed

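RNA from sorted uNK cells was amplified with SMART-Seq v4 and made into Nextera XT libraries. Per the labels and the study's methods, the authors checked reads with FastQC 0.11.4, trimmed them with Trim Galore 0.5.0, aligned them to GRCm38 with STAR 2.7.1 and deposited 1 table of raw counts per gene for each of 37 libraries. The counting program and its strand setting are not given here. The study's methods name a correction for biases of GC content and gene length (CQN), which is not in the deposited counts or in the main fit here. With offsets for both in the quasi-likelihood test, 344 genes were higher and 492 lower in KO Ly49C/I+ cells at an unadjusted p under 0.05. The gene lists were not counted with these offsets.

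Summary lines of unassigned reads were left out of library sizes. The KO and WT Ly49C/I+ libraries were fitted alone, with no covariate, with edgeR 4.0.16 (R 4.3.3, TMM scaling, quasi-likelihood test, Benjamini-Hochberg adjustment, threshold 0.05), keeping genes that reached 5 CPM in 0.5 or more of those libraries. Levels are CPM on 1 TMM scale over all 37 libraries. For single values every arrangement of the libraries was enumerated (exact permutation, two-sided, log2 scale with a pseudocount of 1 CPM), so that no p could be below 0.00216. A level was summed for every list, and the permutation p-values are not adjusted for the number of tests. The alternatives tried were DESeq2 1.42.0, limma 3.58.1 (voom), the likelihood ratio test of edgeR, a fit over all 37 libraries, relative log expression scaling, minimums of 1 CPM or none, offsets for GC content and length (splines with 5 degrees of freedom), a replicate block and each library left out. Gene names and positions came from GENCODE M21 and promoters from RefSeq (GRCm38.p6). Sequence shared between genes was counted over the 50-base stretches of a gene's longest transcript.

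The members and lists were chosen with earlier results of these data known. Genes named were the sorted receptors, Kcnj8, Cd69 and Klrb1b, a fixed set of effector genes, up to 4 called genes (or else the 2 of lowest p) of each list, up to 4 genes in each direction of the interaction, and called genes within 2 Mb of Klrc1. Others were chosen after their values were seen. These include the heat shock and CCT lists, Abcc8 and Abcc9, the genes after Plek, and further members of the lists. Counts without WT 5 or KO 4 and limma-voom were also added after the data were seen.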

Additional observations from a re-analysis of the deposited data

Results flagged for a closer look

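Among 150 groups of values of named genes and libraries, 10 had a library far from the others of its group, and chance alone gives about 1 in 20 groups. Klra9 was low in WT 2 (463.6 CPM, against 659 to 731 CPM in the other WT libraries), as was Klf6 in WT 2 (508.0 CPM, against 599.6 to 661 CPM). Gzma and Itgb2 were high in WT 1 (3820 CPM against 1320 to 1954 CPM, and 1121 CPM against 865 to 953 CPM). In KO 4, Klrb1b was at 365.8 CPM (239 to 257 CPM in the other KO libraries), Cd226 at 121.6 CPM (57.4 to 64.8 CPM) and Xcl1 at 2311 CPM (1258 to 1483 CPM). Pik3r1 was high in KO 5 (410.3 CPM, against 328 to 350 CPM). Id2 and Itgb2 were low in KO 8 (909.1 CPM against 1237 to 1309 CPM, and 990.9 CPM against 1258 to 1338 CPM). The gap was measured on the log2 scale.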

How the results depend on the processing

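The 67 named genes that were tested gave 1539 values under 23 alternatives. Of these, 1451 kept their direction and side of the threshold, 61 (in 23 genes) newly passed it and 27 (in 7 genes) took the opposite sign. The count of genes called between KO and WT Ly49C/I+ cells was 62 with the likelihood ratio test, 84 with DESeq2, 18 with all 37 libraries in 1 fit, 15 with limma-voom and 0 to 15 with 1 library left out (15 without WT 1, 2 without KO 8, otherwise 0), against 0 in the quasi-likelihood test. The cause was not tested. It was 0 with the other scaling, filters and offsets. DESeq2 called 1 gene for the interaction and 1 between KO and WT uneducated cells, as did the likelihood ratio test for the latter.

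Of the 7 genes that changed sign, Klrk1 (0.31) did so only under the block below. With 1 library left out, Xcl1 ranged from -0.066 (without KO 4) to 0.215, Klrg1 from -0.057 to 0.147, Ighd from -0.392 to 0.011, Ighm from -0.085 to 0.047, Vim from -0.021 to 0.133 and Pecam1 from -0.093 to 0.057. With limma-voom, Klrg1 was -0.002, Ighd 0.192, Ighm 0.128 and Pecam1 0.065. Without both libraries numbered 5, Klrg1 was -0.101, Ighm 0.048 and Pecam1 0.061. With offsets, Ighm was 0.009. The summed level of the CD94/NKG2 genes had p = 0.0498 by the exact permutation test with TMM scaling and p = 0.0649 with relative log expression.

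A replicate block gave 0 called genes in the main comparison, in the uneducated comparison and in the interaction, and 1418 between NKG2A+ and uneducated cells. In the main comparison the block kept only libraries numbered 4, 5, 7 and 8, and left out WT 1, WT 2 and KO 6. Under the block, Vim was -0.017, and with GC content and length offsets added Vim was -0.065 and Klrk1 -0.03. Deviations of libraries with the same number correlated at -0.05 to 0.044 between WT and KO Ly49C/I+ cells (4 pairs, 2 of them best with their own number), at 0.024 to 0.255 between KO uneducated and KO Ly49C/I+ cells (5 pairs, 2 best) and at 0.075 to 0.18 between WT uneducated and WT Ly49C/I+ cells (6 pairs, 5 best with their own number, a hint from the data and not the design). In none of these was every pair over 0.1, so the numbers were not taken to pair the libraries.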
